A study of Mus musculus with 6 samples.

Results

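The genes described are 6 that hepatocytes use to make secreted plasma proteins: Alb (albumin), Trf (transferrin), Apoa1 and Apob (apolipoproteins), Fgb (a fibrinogen chain) and Crp (C-reactive protein). Their members are all peaks of open chromatin whose gene symbol in the deposited table is one of these names, which gave 7 peaks of 22412, with 2 at Fgb and 1 at each other gene. The peaks come from ATAC-seq of mouse liver, in which a transposase cuts accessible DNA in nuclei and tags the fragments for sequencing. Control libraries 1, 2 and 3 were titled Ad-EGFP, with the genotype control, and Dyrk1b libraries 1, 2 and 3 were titled Ad-Dyrk1b, with the genotype Dyrk1b overexpression. The prefix Ad is the usual mark of an adenoviral vector, EGFP is a fluorescent protein that serves as a control cargo, and Dyrk1b is a protein kinase. The sources used here do not give the strain, age or sex of the mice, nor the vector's dose, time or promoter. They also do not say whether replicates came from different animals. The p-values therefore measure no more than the spread among these 6 libraries, and that spread may be technical.

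The liver parenchyma supplies most proteins of blood plasma. Albumin holds water in the vessels and carries fatty acids and drugs, transferrin carries iron, apolipoprotein A-I is the main protein of high-density lipoprotein, and apolipoprotein B is the scaffold of the very-low-density lipoprotein that exports triglyceride. Fibrinogen is the precursor of the blood clot, and C-reactive protein binds bacterial surfaces and damaged cells. The promoters of such genes are read by transcription factors enriched in liver, among them HNF1, HNF4 and the C/EBP family, and acute phase genes also respond to interleukin-6 through STAT3. In whole liver, fewer hepatocytes and less open chromatin per hepatocyte cannot be told apart, because all cells are lysed together.

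Of the 7 peaks only that of Crp lay at the promoter, so its promoter is shown, with those of Alb and Fgb beside it as the genes with the matches to the HNF1 half-site. The sequences are the 250 bases before the start of the gene in RefSeq, build GRCm38.p6, and 5 of the 6 genes matched an entry, without Trf. Capitals mark matches, on either strand, to the letters GTTAAT (HNF1 half-site), TTNNGNAA (C/EBP), TTCNNNGAA (STAT, which reads the same on both strands) and CAAAGTCC (HNF4 half-site). They also mark the TATA box, searched for with the letters TATAAA. A variant of that box was searched for as well, with TATATA in its place.
Crp promoter, chr1:172697806-172698055, plus strand: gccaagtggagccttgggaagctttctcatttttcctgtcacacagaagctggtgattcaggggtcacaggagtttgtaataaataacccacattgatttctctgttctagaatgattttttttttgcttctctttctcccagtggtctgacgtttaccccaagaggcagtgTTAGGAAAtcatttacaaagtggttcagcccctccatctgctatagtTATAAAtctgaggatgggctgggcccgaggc
Fgb promoter, chr3:83049864-83050113, minus strand: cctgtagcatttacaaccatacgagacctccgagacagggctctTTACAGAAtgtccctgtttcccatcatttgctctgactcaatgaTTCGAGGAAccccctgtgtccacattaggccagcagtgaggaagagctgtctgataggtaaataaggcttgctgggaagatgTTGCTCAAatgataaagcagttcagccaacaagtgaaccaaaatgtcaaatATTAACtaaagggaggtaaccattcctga
Alb promoter, chr5:90460620-90460869, plus strand: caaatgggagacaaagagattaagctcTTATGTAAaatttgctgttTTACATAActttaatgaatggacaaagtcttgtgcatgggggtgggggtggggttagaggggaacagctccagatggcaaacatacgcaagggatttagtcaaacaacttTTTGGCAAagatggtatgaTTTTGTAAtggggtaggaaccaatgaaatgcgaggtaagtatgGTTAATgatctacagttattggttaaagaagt

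The HNF1 half-site lay 32 to 27 bases before the start of Alb and, on the other strand, 29 to 24 bases before that of Fgb. These letters are in 6.43% of the 32851 windows of this length in the promoter table. The C/EBP letters matched 4 times at Alb, 2 times at Fgb and once each at Crp and Apob, and they are common, being in 36.8% of all windows. The TATA box stood at 31 to 26 bases before Crp and 60 to 55 bases before Apob, and is in 12.4% of windows. The STAT letters matched only at Fgb, 162 to 154 bases before the start, and are in 7.02% of windows. The HNF4 half-site (1.20% of windows) and the TATA variant (5.25%) matched none of the 5 genes, and Apoa1 had no match to any of the 6 patterns. A match is a description of letters and does not show a bound site.

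The peaks of these genes mostly lay away from the start. Coordinates are those of the deposited table, whose build is discussed with the processing. The Crp peak (chromosome 1, 172525118 to 172525410) covered 212 to 504 bases upstream of the listed start, so that most of it lies beyond the window printed above. The Alb peak (chromosome 5, 90616184 to 90616533) lay in exon 8 of 15, 7602 bases from the start. The Trf peak (chromosome 9, 103084751 to 103085433) lay in the last intron, 17 of 17, and the Apob peak (chromosome 12, 8028391 to 8028816) in intron 2 of 8 of the listed transcript, 955 bases from the start. The listed Apob gene spans 10171 bases, against 39211 in the GRCm38 gene table, so the exon and intron counts are those of a short transcript.

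The other 3 peaks were downstream of their genes. That of Apoa1 (chromosome 9, 46141896 to 46142516) began 625 bases past the listed end of a transcript of 1253 bases, a shorter one than the 1840 bases of the gene in the GRCm38 table, and carried the class downstream 2-3 kb. Fgb runs on the minus strand, and its near peak (chromosome 3, 82947063 to 82947325) lay 123 bases and its far peak (82946335 to 82946731) 717 bases past the end. Over all 22412 peaks, 15.2% had the promoter class, 12.8% the 5′ UTR class and 2.22% the downstream class. The deposited table held no peak of the promoter class for the other 5 genes. Peak names run to 30387 and the table holds part of that set, so whether such peaks were found is not known.

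Per length, 5 of the 7 peaks were among the more open ones. In RPKM, the authors' reads per kilobase of peak scaled to a library total, the median peak of the table had a mean of 1.64 over the 6 libraries. Alb stood highest at 3.40 ± 1.68 (SD over 6 libraries), at percentile 99.5 of all peaks, followed by Apoa1 at 3.05 ± 0.779 and the near Fgb peak at 2.76 ± 0.740. Trf had 2.69 ± 1.03, Apob 2.14 ± 0.369, Crp 1.80 ± 0.669 and the far Fgb peak 1.59 ± 0.567, the last at percentile 45.3. Each peak differed from the next in this order by less than the SD of either, except Trf from Apob, whose difference of 0.541 was above the SD of Apob and below that of Trf. Trf was above Apob in 5 of 6 libraries, while the other neighbours were in this order in 2 to 4 of 6.

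Reads in all peaks came to 762633 to 1267934 per library, and the 7 peaks took 250 to 418 of them, or 0.0297% to 0.0488%. A single value therefore rested on 11 to 121 reads, and counting error alone is large at the low end. Levels below are counts per 1000000 reads in peaks (CPM), scaled with TMM factors and given for libraries 1, 2 and 3 of each group, and differences are log2 changes of Dyrk1b overexpression minus control with their standard error (SE). They were tested with edgeR's quasi-likelihood test over 22051 peaks, and a peak was called at a Benjamini-Hochberg adjusted p under 0.05.

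No peak of these genes was called, although 6 of the 7 log2 changes were negative. By edgeR 0 of 7 passed, where 0.0317% of all peaks did (0.0227% as lower). An unadjusted p under 0.05 was met by 2 of 7, both lower, where 14.2% of all peaks met it, 7.72% as lower and 6.44% as higher. DESeq2 also called 0, with 1 unadjusted p under 0.05, and gave 4 of the 7 no adjusted p (it called 0.0678% of the peaks that got one). limma-trend called 0, with 1 unadjusted p under 0.05, where it called 0.00907% of peaks. The share of all peaks with an unadjusted p under 0.05 is given for edgeR only, here and for the lists below. The median of the 7 log2 changes was -0.47, that of all peaks tested 0.0047, and 49.5% of all peaks were negative. At 2 of the 7 peaks (28.6%) no Dyrk1b library reached the range of controls, and such separation in either direction was seen at 19.5% of all peaks.

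**Figure D1:**
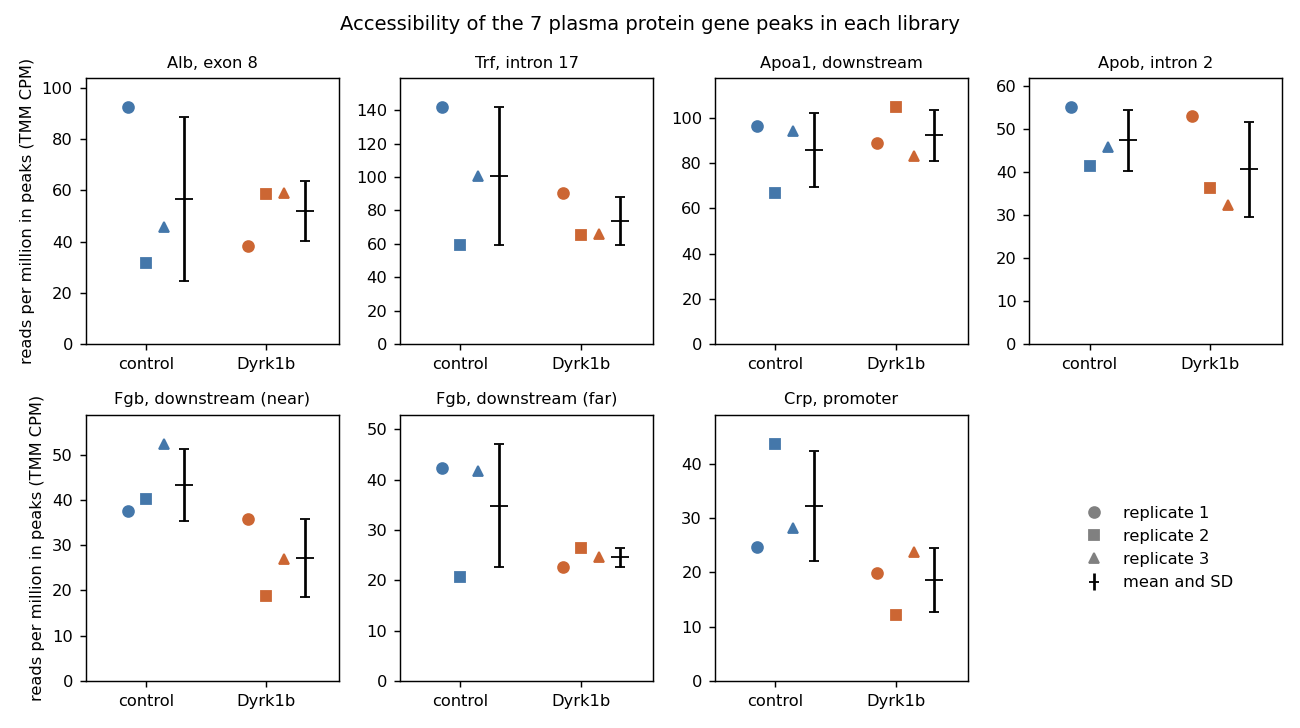
TMM-normalised reads per 1000000 reads in peaks (CPM, vertical axes, from 0) of the 7 peaks in the 3 control and 3 Dyrk1b libraries, with a marker for each replicate and the mean and SD of each group beside it. Only at the near Fgb peak and at Crp do all Dyrk1b libraries lie below all controls, and control 1 stands far above the other controls at Alb and Trf.

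Among the carrier proteins, albumin had the most uneven controls. The Alb peak held 92.6, 31.6 and 45.7 CPM in controls (79, 26 and 34 reads) and 38.5, 58.4 and 59.1 CPM with Dyrk1b (29, 53 and 77 reads). Control 1 was the highest and control 2 the lowest of the 6 libraries, so that the Dyrk1b libraries all lay inside the range of controls. Means (± SD, n = 3) were 56.6 ± 31.96 CPM in controls and 52.0 ± 11.7 with Dyrk1b. The log2 change was -0.11 ± 0.28 (95% interval -0.67 to 0.45, adjusted p = 0.880 by edgeR). The sign depended on single libraries: the log2 change was 0.45 without control 1 and 0.051 without Dyrk1b 1. It was -0.40 without control 2, -0.24 without control 3, -0.19 without Dyrk1b 2 and -0.22 without Dyrk1b 3. The log2 ratio of mean RPKM for Alb in the authors' deposited table was 0.042 (FDR 0.985). It is on another scale than the log2 change. With counts scaled by the RPKM library totals, the median log2 change of all peaks was 0.17, against 0.0047 with TMM.

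At Trf the same control was high. Its peak held 142, 59.5 and 101 CPM in controls and 90.2, 65.1 and 66.0 CPM with Dyrk1b. The 3 Dyrk1b libraries lay between controls 2 and 3, and controls differed 2.38-fold among themselves against 1.39-fold for Dyrk1b libraries. The log2 change was -0.47 ± 0.24 (95% interval -0.94 to 0.0086, adjusted p = 0.363 by edgeR). It was -0.13 without control 1 and -0.74 without control 2, the 2 libraries whose loss moved it by more than 1.5 times. Without control 3 it was -0.47, and without Dyrk1b 1, 2 or 3 it was -0.61, -0.39 and -0.38. The adjusted p lay between 0.187 and 0.872 with 1 library left out.

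The peaks of both apolipoprotein genes had groups that overlapped. The Apoa1 peak held 96.1, 66.8 and 94.1 CPM in controls and 88.9, 105 and 82.9 CPM with Dyrk1b. Control 2 was the lowest of the 6 libraries and Dyrk1b 2 the highest, and the groups overlapped. This was the only positive value among the 7, at 0.10 ± 0.22 (95% interval -0.34 to 0.54, adjusted p = 0.859 by edgeR), an interval that runs from 0.791 to 1.46 times the control level. Without control 2 it was -0.050, without Dyrk1b 2 it was 0.0025, and without any of the other 4 libraries it lay between 0.13 and 0.20.

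The Apob peak held 55.1, 41.3 and 45.7 CPM in controls and 53.1, 36.4 and 32.2 CPM with Dyrk1b. Dyrk1b 1 lay within the controls and the other 2 Dyrk1b libraries below them. The log2 change was -0.25 ± 0.29 (95% interval -0.82 to 0.32, adjusted p = 0.700 by edgeR). With 1 library left out it was negative each time, from -0.47 without Dyrk1b 1 to -0.090 without Dyrk1b 3. On the deposited RPKM scale the 3 Dyrk1b libraries all held 2.04 or 2.05 at this peak, and controls 2.87, 1.80 and 2.07.

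The peaks beyond the end of Fgb had negative values at both positions. The near peak held 37.5, 40.1 and 52.4 CPM in controls (32, 33 and 39 reads) and 35.8, 18.7 and 26.9 CPM with Dyrk1b (27, 17 and 35 reads). Every Dyrk1b library was below every control, by a narrow margin between Dyrk1b 1 and control 1. Its log2 change of -0.68 ± 0.32 had a 95% interval of -1.32 to -0.038 and the lowest adjusted p of the 7 peaks, 0.328 by edgeR (unadjusted p = 0.0374). With 1 library left out it lay between -0.89 (without Dyrk1b 1) and -0.48 (without Dyrk1b 2), with an adjusted p of 0.279 or more.

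The far Fgb peak held 42.2, 20.7 and 41.7 CPM in controls and 22.6, 26.5 and 24.6 CPM with Dyrk1b. Control 2 was the lowest of all 6 libraries, below each Dyrk1b library, and the other 2 controls were above them. The log2 change was -0.50 ± 0.35 (95% interval -1.20 to 0.20, adjusted p = 0.508 by edgeR), -0.77 without control 2 and -0.33 without control 1. Without control 3 it was -0.36 and without Dyrk1b 1, 2 or 3 it was -0.44, -0.55 and -0.49. With the reads of both peaks summed, as for every gene of the table, Fgb went from 86.2 ± 18.2 to 57.9 ± 7.37 CPM of reads in peaks with a gene symbol, a log2 change of -0.57 ± 0.24 (unadjusted p = 0.0193, adjusted p = 0.233 by edgeR over 10609 genes). The groups did not overlap in this sum, as for 20.4% of all genes. Of the 6 genes tested in this way edgeR called 0, where it called 0.198% of all genes, and 5 of 6 were negative, where 49.8% of all genes were.

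At Crp, the one gene of the 6 with its peak at the promoter, the value was the lowest of the 7. The peak held 24.6, 43.7 and 28.2 CPM in controls (21, 36 and 21 reads) and 19.9, 12.1 and 23.8 CPM with Dyrk1b (15, 11 and 31 reads). All Dyrk1b libraries were below all controls, with Dyrk1b 3 just under control 1. The log2 change was -0.77 ± 0.39 (95% interval -1.54 to 0.0031, unadjusted p = 0.0497, adjusted p = 0.352 by edgeR). That the interval holds 0 with a p just under 0.05 comes from how intervals were made, as described with the processing. Control 2 carried much of it: without that library the log2 change was -0.48. Without Dyrk1b 2 it was -0.54, and without any of the other 4 libraries it lay between -1.01 and -0.79. For Crp, the log2 ratio in the authors' deposited table, on the RPKM scale as for Alb, was -0.59 (FDR 0.650).

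**Figure D2:**
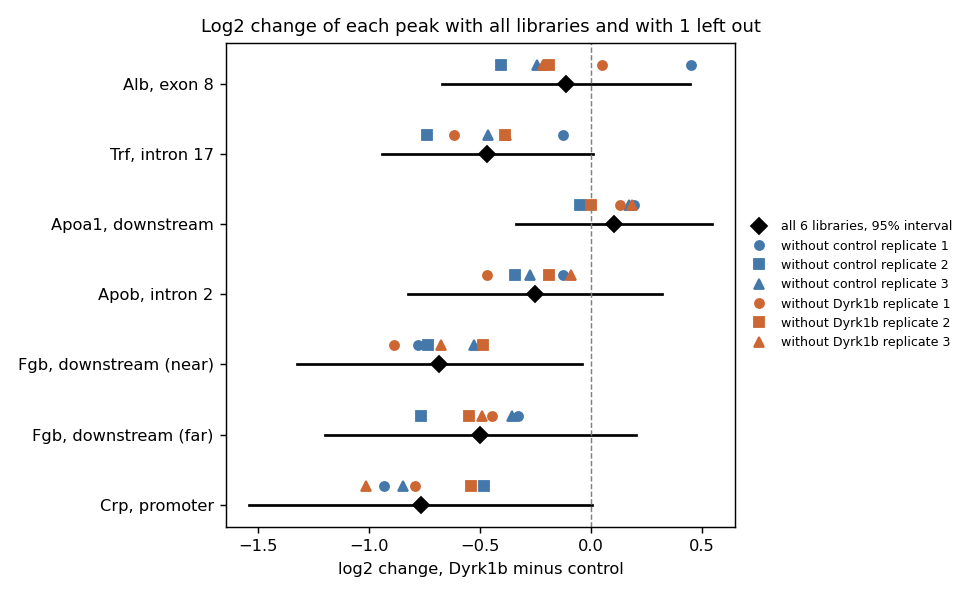
Log2 change of Dyrk1b minus control (horizontal axis) for each of the 7 peaks, with all 6 libraries (black diamonds, line: 95% interval) and with 1 library left out (coloured markers above). Leaving out control 1 moves Alb to 0.45 and Trf to -0.13, while the near Fgb peak and Crp stay at -0.48 or lower each time.

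Across libraries, 5 of the 7 peaks (Alb, Trf, Apoa1, Apob and the far Fgb peak) had control 1 as the highest and control 2 as the lowest control. How many of all peaks have this order was not examined. At Crp the order was turned, with control 2 the highest and control 1 the lowest, and at the near Fgb peak control 3 was the highest. The summed CPM of the 7 peaks was 490, 304 and 409 in controls and 349, 322 and 316 with Dyrk1b, so controls 1 and 3 lay above and control 2 below all Dyrk1b libraries. Over the 6 libraries, which share depth and scaling, Pearson's r of log2 CPM was positive for 15 of 21 pairs of peaks. Among the 5 peaks named first it lay between 0.096 and 0.82. Those 5 were grouped by their shared order of controls in the same libraries, so positive values among them were partly fixed in advance. The share of positive pairs among other peaks was not examined. It was highest between Trf and the far Fgb peak (0.82) and between Trf and Apob (0.81). It was -0.83 between Apoa1 and Crp and 0.40 between both Fgb peaks. These values describe 6 libraries and were not tested.

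By the same measure, the peaks most alike to the members were searched among at least 15765 peaks of other named genes with a mean of 20 reads or more. With so many candidates over 6 libraries, some high values are bound to occur. Alb was most like an intronic peak of Dnajc22 (r = 0.993) and one of Qsox1 (0.983), and Trf most like Szrd1 (0.995) and Polr2a (0.983). Apoa1 was most like an intronic peak of Apoh (0.994), which encodes another plasma apolipoprotein, and one of Tom1l2 (0.988). Apob was most like Ppan (0.992) and Sp140 (0.989), the near Fgb peak like the promoter peak of the proteasome subunit gene Psmb2 (0.999) and Pepd (0.993), and Crp like Slc25a25 (0.992) and the thrombin receptor gene F2r (0.990).

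Around Apoa1 lies a cluster of apolipoprotein genes, in which the peaks of the other apolipoproteins had lower values than that of Apoa1 itself. Within 100 kb of the Apoa1 peak stood 14 peaks with other annotations, with a median log2 change of -0.16. Of these, 10 were negative, where 49.5% of all peaks were, and the highest was at 0.55 ± 0.40. The promoter peak of Apoa5, which encodes an activator of triglyceride clearance, held 65.7, 44.9 and 49.7 CPM in controls and 27.9, 14.3 and 31.5 CPM with Dyrk1b. All Dyrk1b libraries were below all controls, and the log2 change of -1.10 ± 0.31 had an adjusted p of 0.132 by edgeR. It stayed uncalled and negative under every alternative run.

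Apoc3, which encodes an inhibitor of triglyceride clearance, had a pair of adjacent peaks that differed. The one in the 5′ UTR class held 42.2, 44.9 and 44.4 CPM in controls and 22.6, 25.4 and 32.2 CPM with Dyrk1b, or -0.69 ± 0.31 (log2 change, adjusted p = 0.311 by edgeR), with groups that did not overlap. The one in the promoter class held 42.2, 41.3 and 34.9 CPM and 19.9, 48.5 and 45.3 CPM, at -0.031 ± 0.31, where Dyrk1b 1 was the lowest library and the other 2 Dyrk1b libraries the highest. The difference between the peaks was not tested. Apoa4 had -0.19 ± 0.25, and the promoter of Zpr1, the zinc finger protein gene beside Apoa5, -0.59 ± 0.24 (adjusted p = 0.263).

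**Figure D3:**
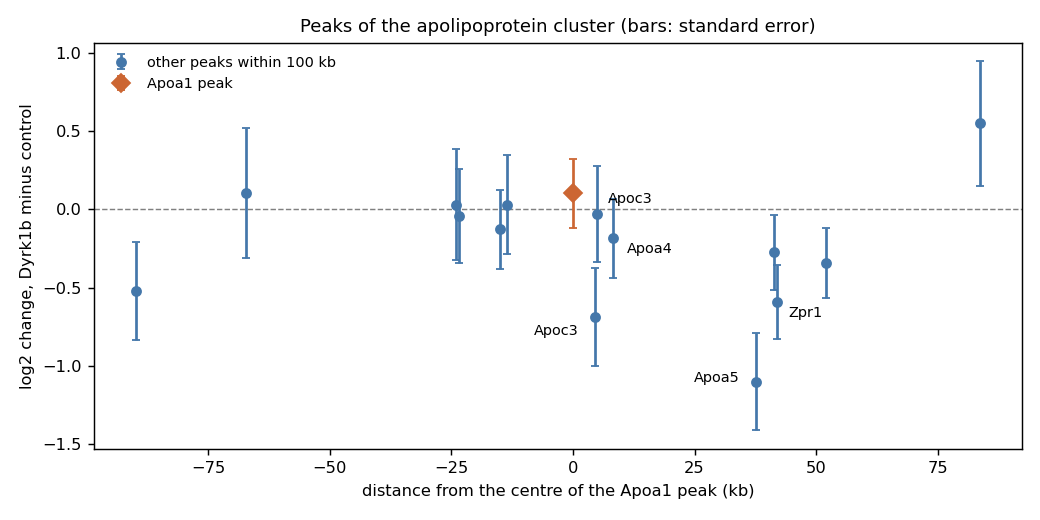
Log2 change of Dyrk1b minus control (vertical axis, bars: SE) of the Apoa1 peak and the 14 other peaks within 100 kb, by distance from the centre of the Apoa1 peak in kb. The Apoa1 peak is at 0.10 and the lowest value is at Apoa5 (-1.10), and none was called.

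Peaks near the other members were fewer. The fibrinogen cluster also held a 5′ UTR peak of Fga, another fibrinogen chain, at -0.39 ± 0.35, and the promoter peak of Plrg1, a splicing factor gene, at -0.70 ± 0.27. Within 100 kb, 3 of 4 neighbours of the Fgb peaks, both of Apob, the single one of Crp (Dusp23, -0.49 ± 0.22), 1 of 3 of Alb and 4 of 8 of Trf were negative. Of all peaks 49.5% were negative. Beside Trf the value of Srprb, a receptor subunit for nascent secreted proteins, was -0.58 ± 0.25, while Topbp1 and Rab6b had 1.13 ± 0.50 and 0.87 ± 0.47. None of these neighbours was called by edgeR.

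A wider list of plasma protein genes, chosen from textbook knowledge with earlier results of these data known, had a smaller shift than the 7 peaks. Of 109 further genes 65 had a peak that was tested, with 115 peaks in all, 70 of them negative (60.9%, where 49.5% of all peaks were) and a median log2 change of -0.18. edgeR called 0 of the 115, where it called 0.0317% of all peaks. An unadjusted p under 0.05 was met by 14 lower peaks (12.2%, where 7.72% of all peaks met it) and 9 higher ones (7.83%, where 6.44% did). DESeq2 called 0 (85 without an adjusted p, 18 with an unadjusted p under 0.05), and limma-trend 0 (25 under 0.05). At 33 of the peaks (28.7%, against 19.5% of all peaks) the groups were separate. Without control 1 the median was -0.056, with 62 of 115 negative. Scaled by the RPKM totals it was -0.024, with 60 negative and the median of all peaks at 0.17. Within 3 kb of a start the list had a median of -0.20 over 57 peaks and all peaks one of -0.067, and beyond 3 kb these were -0.14 over 58 peaks and 0.077.

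By class, medians were -0.31 for other carriers (6 of 9 negative), -0.31 for acute phase proteins and protease inhibitors (11 of 14), -0.18 for apolipoproteins and lipoprotein factors (15 of 25) and -0.17 for coagulation and fibrinolysis (19 of 30). Without control 1 the acute phase median was -0.15 and that of coagulation -0.073, and that of apolipoproteins was -0.29 without control 2, -0.11 without control 3 and -0.095 with loess scaling. Scaled by the RPKM totals, the 4 medians were -0.16, -0.14, -0.0074 and -0.0067 in the order given. Relative to the median of all peaks, which was then 0.17, they were -0.33, -0.31, -0.18 and -0.18. Hormones and growth factors had -0.042 (10 of 17) and complement 0.054 (9 of 20). The sign for complement turned without control 2, control 3 or Dyrk1b 3, and that for hormones without control 1 or Dyrk1b 1 and with scaling by the RPKM totals. Relative to the median of all peaks, the hormone median was -0.045 with that scaling and -0.047 in the main fit. Among carriers the lowest p were at introns of Cp, the copper protein ceruloplasmin (-0.81 ± 0.29, from 53.6 ± 6.16 to 30.4 ± 2.73 CPM), and Rbp4, the retinol carrier (-0.58 ± 0.28). Among acute phase genes they were at the promoter of Orm2, an orosomucoid gene (-1.03 ± 0.48), and downstream of Itih3 (-0.46 ± 0.22, from 91.9 ± 9.41 to 66.5 ± 5.32 CPM). Lipc, the hepatic lipase gene, had an intronic peak at -0.70 ± 0.24, from 87.2 ± 16.2 to 53.2 ± 6.38 CPM. It was the lowest of 7 intronic Lipc peaks, whose highest log2 change was 0.77.

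Values in the other classes went both ways. In coagulation, an intronic peak of Pros1, which encodes the anticoagulant protein S, was the highest of the list at 1.41 ± 0.45, with 11.7 ± 4.13 CPM in controls and 31.4 ± 11.9 CPM with Dyrk1b. Klkb1, the plasma kallikrein gene, had -0.72 ± 0.27. In complement, an intronic peak of C8b had 1.001 ± 0.40 and a downstream peak of C4b -1.12 ± 0.52. Of the secreted factors, Gdf15 had -0.60 ± 0.27 and Igf1 -0.66 ± 0.33. None of the peaks given with an SE in this and the preceding paragraph was called, with adjusted p from 0.175 to 0.350 over all peaks by edgeR.

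**Figure D4:**
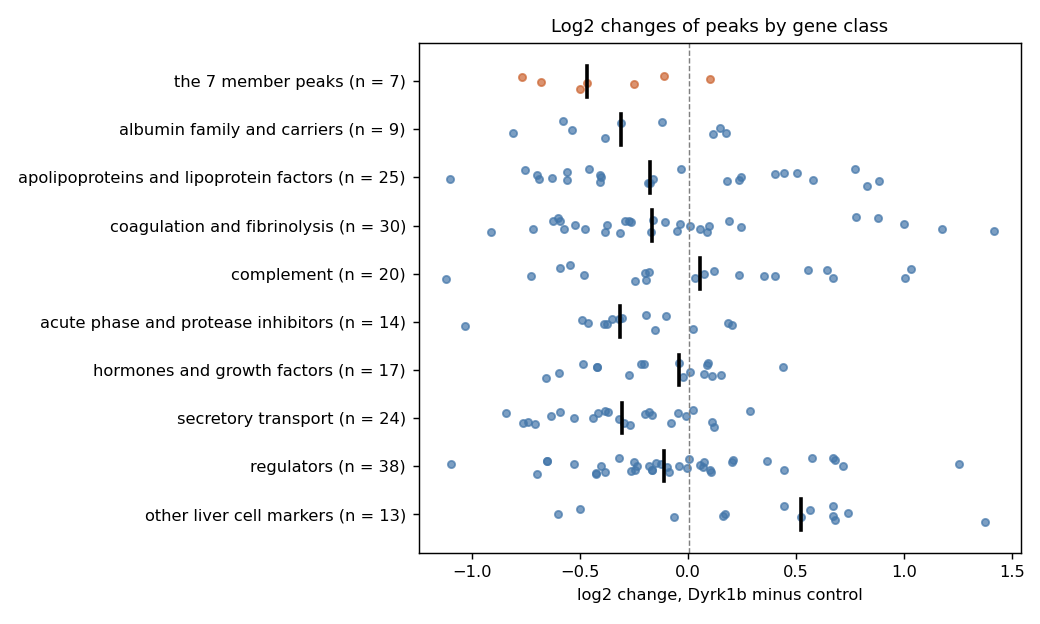
Log2 change of Dyrk1b minus control (horizontal axis) of single peaks (points) by gene class, with the median of each class (black bar) and the median of all peaks tested (dashed line). The 7 member peaks have a median of -0.47, the wider plasma classes medians between -0.31 and 0.054, and markers of other liver cells one of 0.52.

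Genes for export and regulation of these proteins were examined with the same fit. Secretory transport genes had 24 peaks at 15 of 22 genes. Of these, 20 were negative (83.3%, where 49.5% of all peaks were), with a median of -0.31. That median was -0.13 when scaled by the RPKM totals and -0.20 with loess scaling. With the RPKM totals the median of all peaks was 0.17, and the list lay at -0.31 relative to it, as in the main fit. The lowest p were at Sec24c, a subunit of the COPII coat of vesicles (-0.53 ± 0.22), and Sar1b, the COPII GTPase (-0.84 ± 0.37). Regulators of plasma protein genes had 38 peaks at 14 of 21 genes. Of these, 23 were negative (60.5%, where 49.5% of all peaks were), with a median of -0.11. This median was -8.5e-05 with loess scaling, with 19 of 38 negative. Scaled by the RPKM totals the median was 0.055, and relative to the median of all peaks it was -0.12, as in the main fit. Without single libraries the regulator median ran from -0.17 (control 2) to -0.067 (Dyrk1b 1), and it was -0.071 without control 1 and -0.072 without Dyrk1b 2. Their lowest p were at the glucocorticoid receptor gene Nr3c1 (1.25 ± 0.34, adjusted p = 0.112 by edgeR) and the interleukin-6 receptor gene Il6ra (-0.65 ± 0.24). edgeR, DESeq2 and limma-trend called 0 in either list. DESeq2 gave 14 of the 24 transport peaks and 20 of the 38 regulator peaks no adjusted p, so it could not call those. At an unadjusted p under 0.05 edgeR had 4 transport peaks (16.7%) and 7 regulator peaks (18.4%), where 14.2% of all peaks met it. DESeq2 had 4 and 6, and limma-trend 6 and 6. The groups did not overlap at 4 transport peaks (16.7%) and 5 regulator peaks (13.2%), where 19.5% of all peaks did not.

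Of markers of other liver cells, most peaks had positive values. Of 42 such genes 10 had a peak that was tested, with 13 peaks, 10 of them positive. The 3 negative ones made 23.1%, where 49.5% of all peaks were negative. The median log2 change was 0.52, and it was 0.32 without control 1 and 0.33 without control 3. Singly, the groups did not overlap at 4 of the 13 peaks (30.8%, where 19.5% of all peaks did not). Their summed CPM was 443 to 493 in controls and 502 to 550 with Dyrk1b, with no overlap. How often sums over other sets of peaks are separate was not examined, for this sum or for those by cell type. By cell type, sums did not overlap for endothelium (5 peaks, 156 to 179 CPM in controls against 197 to 218), B cells (2 peaks, 23.4 to 40.3 against 45.1 to 67.6) and stellate cells (1 peak, 11.7 to 15.8 against 20.7 to 23.9). They overlapped for macrophages, neutrophils and T and NK cells, and Cd4 of T cells had -0.60. The 5 cholangiocyte markers had no peak that was tested. The lowest p were at Ebf1 of B cells (1.37 ± 0.44), Spi1 (-0.50 ± 0.21) and Csf1r (0.67 ± 0.33) of macrophages, with 0 called by edgeR, DESeq2 or limma-trend. DESeq2 gave 11 of the 13 peaks no adjusted p, so it could not call those. An unadjusted p under 0.05 was met by 3 peaks in edgeR (23.1%, where 14.2% of all peaks met it), 2 in DESeq2 and 4 in limma-trend. The part of these cells in the values of the plasma protein genes was not tested.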

How the data were processed

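ATAC-seq reads were deposited by the authors as counts per peak over 1 merged peak set, with RPKM values, and, per the file headers, a log2 ratio of mean RPKM, a p-value and an FDR from their own comparison. Bowtie2, ChIPseeker and DiffBind appear, without versions, in the submitters' processing notes; for the peak caller, duplicates and transposase shift, the steps are not given in the sources used. The notes list mm10, but the listed start of Alb lies 147886 bases from that in a GRCm38 gene table, so coordinates are printed as deposited. Sequences were matched by symbol to RefSeq promoters of GRCm38.p6.

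Groups came from the sample titles. Counts were fitted with edgeR 4.0.16 in R 4.3.3 (TMM, filterByExpr, which kept 22051 peaks and removed 361, quasi-likelihood test, no covariate, Benjamini-Hochberg adjustment). The procedure was run on counts simulated from its own fitted model. That simulation held no deviating libraries, so it does not show how the test performs with controls as uneven as those here. Intervals of 95% came from the SE and the fitted degrees of freedom. log2 CPM used a prior count of 2. For reads summed per gene, 2602 peaks without a symbol were left out. The library totals behind the RPKM values were recovered as 38052486 to 48304436 reads. Reads in the deposited peaks were a low and uneven part of these totals, from 1.67% in Dyrk1b 1 to 2.62% in Dyrk1b 3. Controls 1, 2 and 3 had 2.22%, 1.89% and 1.97%. No pair of libraries matched within counting error (a chi-square statistic of at least 2.18 per degree of freedom), and each counted as 1 replicate. No count is under 1, and whether 1 stands for an empty peak is not stated. Alternatives were DESeq2 1.42.0, limma-trend (limma 3.58.1), other scalings, no filter, a replicate block and leaving out each library.

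The members and lists were chosen with earlier results of these data known. All 7 member peaks passed the filter and are described. From other lists the up to 2 genes with the lowest p per class were named, as were neighbours on the plasma list within 100 kb and the 2 most alike genes per member; Zpr1, Plrg1, Dusp23, Srprb, Topbp1, Rab6b and the genes of the closing section were chosen after their values were seen.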

Additional observations from a re-analysis of the deposited data

How the results depend on the processing

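No alternative called any of the 7 member peaks, any member gene with its reads summed, or any peak of the wider lists. DESeq2 could not call the peaks to which it gave no adjusted p. The median log2 change of the 7 peaks, -0.47, lay between -0.46 and -0.30 (loess) under the 8 alternatives that keep all libraries and between -0.48 and -0.13 with 1 library left out; the highest, -0.13, was without control 1. Scaling by the RPKM library totals moved the median of all peaks to 0.17, and the members then stood at -0.34, with 5 of 7 negative. Only Alb and Apoa1 changed sign. Left-out libraries gave Alb -0.40 to 0.45 (-0.38 to 0.48 with summed reads) and Apoa1 -0.050 to 0.20 (-0.024 to 0.22). Alb had 0.048 with that scaling (0.049 in the test of summed reads), 0.45 without control 1 (0.48 summed), 0.051 without Dyrk1b 1 (0.072 summed) and, summed only, 0.017 with limma-trend. Apoa1 had -0.050 without control 2 (-0.024 summed). With the RPKM totals the median of the regulators was 0.055. Replicates of equal number did not deviate together (r of -0.0098, -0.014 and 0.0073 over peaks), and the numbers are not stated to mark pairs. With a replicate block, the members had a median of -0.41 and 0 calls, and all peaks had 7 calls, as without it. The members rest on 11 to 121 reads per value, and libraries differ beyond counting error, so both depth and library spread widen the 95% intervals of the log2 changes, which span 0.88 to 1.54.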

Other observations

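These plasma protein genes are no members, and their values were known when they were chosen. Lipc, which encodes hepatic lipase, had 7 intronic peaks with log2 changes from -0.70 to 0.77. At a second apolipoprotein cluster, Apoc1, Apoc2 and Apoc4 had -0.41 ± 0.29, -0.56 ± 0.22 and -0.41 ± 0.33. None of these peaks was called by edgeR.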
